A study of Octopus bimaculoides with 16 samples.

Results

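The genes described here are those of the octopus optic lobe that stood above every other tissue sampled. They were the 128 of 15842 measured genes with at least 10 CPM in the optic lobe and a level there at least 4-fold above each of eye, olfactory organ, mantle skin, statocyst, sucker rim cells and whole sucker cup. CPM is reads per gene scaled to a library total of 1000000, and the ratio was taken on CPM + 1. The optic lobe level and its ratio to each tissue chose these genes, so both are given as descriptions, with no test.

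All samples came from Octopus bimaculoides, the California two-spot octopus, and messenger RNA was sequenced in bulk from tissue dissected by hand. The optic lobe library is labelled brain, and the tissues it is set against are eye, olfactory organ, skin of the mantle, statocyst, dissociated cells of sucker rims (the title names 8 suckers) and whole sucker cup of arm R1. Whole sucker cup had 2 libraries, named automated and manual, and each of the other 6 tissues had 1. The labels name no treatment, genotype, age, sex or number of animals, so how far animals vary is unknown here. Intervals are 95% intervals of counting error only. In bulk tissue, fewer cells of a type and less RNA per cell cannot be told apart.

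The optic lobe is the large lobe of the brain behind each cephalopod eye. Axons of the photoreceptors leave the retina and end in its outer layers, and its interneurons process visual signals and take part in visual memory. The cephalopod retina holds photoreceptors and supporting cells and lacks the layers of interneurons found in vertebrates. Of the other organs, the statocyst senses gravity and movement through hair cells, the olfactory organ is a chemosensory pit, sucker rims carry cells for touch and taste, and mantle skin holds the chromatophore organs with their nerves and muscles.

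The gene identifiers carry no functional names. A RefSeq gene table of the assembly ASM119413v2 held 119 of the 128 identifiers and gave a synonym, the only kind of name looked for, for 0 of them. No role is therefore given for any gene, and the labelled tissues were not checked against marker genes. CPM is not divided by transcript length, so a higher CPM of one gene than of another means a larger share of reads, not more transcripts.

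The optic lobe library held 5373482 reads, and the other 7 held between 4782744 (mantle skin) and 36916825 (rim cells), so that 1 read was worth 0.186 CPM in optic lobe and 0.0271 CPM in rim cells. Of the 15842 genes, 6299 reached 10 CPM in optic lobe, and the 128 were 2.03% of these. Their median log2 ratio to the highest other tissue was 2.26. For 68 of them the ratio was under 5-fold, for 15 it was at least 8-fold, and for 1, LOC106867091, it passed 16-fold. Most therefore lay close to the threshold, and 139 further genes had a ratio between 3-fold and 4-fold. Just inside were LOC106872507 and LOC106868442, both with a log2 ratio of 2.003, and LOC106873066 with 2.02. Just outside were LOC106876292 at 1.997, LOC106868056 at 1.996 and LOC106873821 at 1.993.

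A few genes held most of the reads. The 128 genes had between 12.5 and 65721 CPM in optic lobe, with a median of 291 CPM. Of these, 25 had at least 1000 CPM and 18 had under 50 CPM. The 3 with the most reads took 12.02% of all optic lobe reads, which was 52.0% of the reads of the 128, and the first 8 took 73.6% of them.

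LOC106876298 alone took 6.57% of the optic lobe reads. It had 65721 CPM in optic lobe (65505 to 65938), 7983 in eye, 104 in mantle skin, 23.0 in statocyst, 2.73 in olfactory organ, 0.592 and 0.965 in the automated and manual whole sucker libraries, and 0.108 CPM (4 reads) in rim cells. Its ratio of optic lobe to eye, without a pseudocount, was 8.23 (8.17 to 8.29, exact 95% interval of the read counts). Only the eye came within 100-fold of the optic lobe for this gene. LOC106878764 showed the same order of tissues down to the statocyst, with 11249 CPM in optic lobe, 1750.3 in eye, 26.1 in mantle skin and 7.78 in statocyst. It had 0.507 and 0.482 CPM in the automated and manual whole sucker libraries, 0.210 CPM (3 reads) in olfactory organ and no read in rim cells, where 3 reads would be 0.0813 CPM. Mantle skin thus stood at 0.158% of the optic lobe level for LOC106876298 and at 0.232% for LOC106878764, above the olfactory organ and both sucker tissues. The source of these reads in mantle skin was not tested.

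Other genes among the most read reached 10 CPM in more tissues. LOC106870273 had 14799 CPM in optic lobe (14696 to 14902), 1401 in eye, 1271 in rim cells, 931 in mantle skin, 888 in olfactory organ, 612 and 601 in the automated and manual whole sucker libraries, and 10.6 in statocyst. The statocyst was the 1 tissue far below the rest for this gene. LOC106869894 was low in the same tissue, with 24787 CPM in optic lobe, 4375 in eye, 568 in mantle skin, 511 in olfactory organ, 368 in rim cells, 332 and 318 in the automated and manual whole sucker libraries, and 38.4 in statocyst. LOC106875676 had the opposite order of statocyst and rim cells, with 29735 CPM in optic lobe, 5564 in eye, 430 in statocyst, 196 in olfactory organ, 186 in mantle skin, 23.2 and 24.2 in the automated and manual whole sucker libraries, and 2.30 in rim cells. Statocyst was thus the lowest tissue for LOC106870273 and LOC106869894, and rim cells for LOC106875676.

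**Figure D1:**
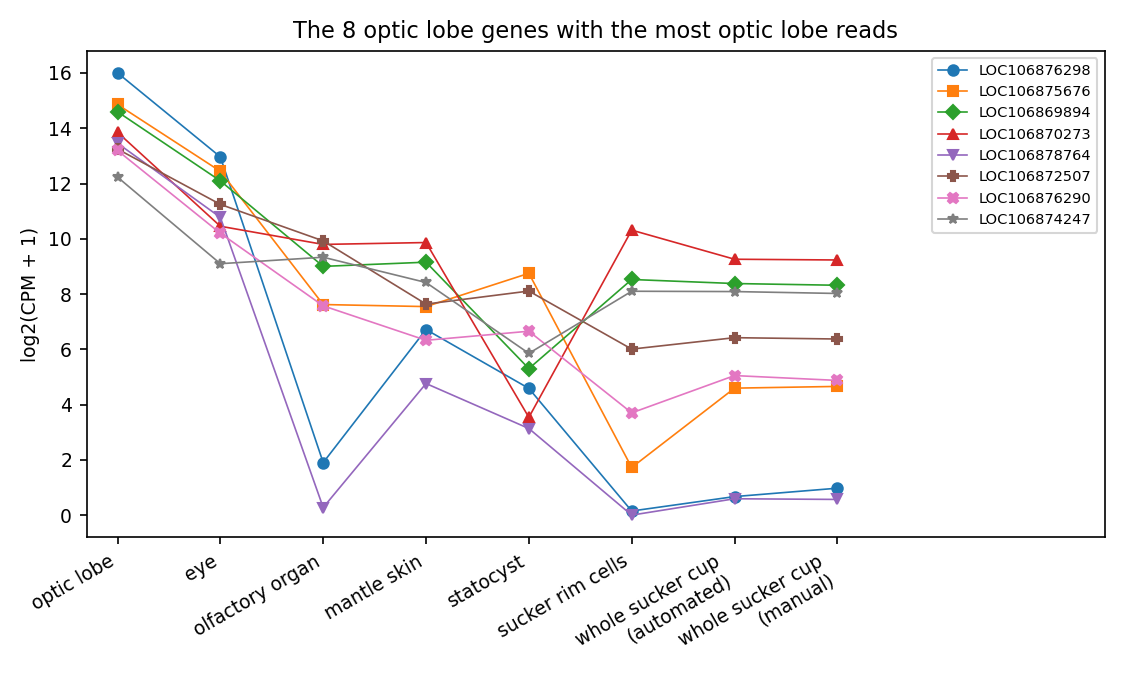
CPM of the 8 genes with the most optic lobe reads in each of the 8 libraries, as log2(CPM + 1), with lines only joining points of one gene. All 8 are highest in optic lobe, 7 have eye next and LOC106874247 has olfactory organ next, while values in the remaining libraries spread from no read to 1271 CPM.

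The step down to the eye was narrow. The median level in eye was 18.7% of that in optic lobe, and the middle 50% of genes lay between 13.98% and 21.7%. The upper side of this range was set by the rule, which allows no more than about 25%, but nothing in the rule bounded the lower side. All 128 genes had reads in eye, 107 reached 10 CPM there, and 1 lay under 1 CPM. Across the 128 genes, levels in eye followed those in optic lobe (Pearson's r = 0.980, Spearman's rho = 0.976 on log2(CPM + 1)), against 0.741 and 0.714 over all 6299 genes at 10 CPM or more in optic lobe. Genes do not count as replicates here. The rule bounded the ratio to eye, which partly built in the first pair of values, so no conclusion is drawn from the contrast. Pearson's r was also higher over the 128 genes for mantle skin (0.740 against 0.526), statocyst (0.730 against 0.453) and olfactory organ (0.652 against 0.530). It was about equal for whole sucker cup (0.525 against 0.518) and lower for rim cells (0.473 against 0.510). The SD of the log2 ratio of optic lobe to eye was 0.48 over the 128 genes, against 1.94 for olfactory organ, 1.65 for mantle skin, 1.66 for statocyst, 2.45 for rim cells and 2.21 for whole sucker cup. Over all 6299 genes eye also had the smallest SD, 1.19. There it was 1.66 for olfactory organ, 1.71 for mantle skin, 1.88 for statocyst, 1.75 for rim cells and 1.70 for whole sucker cup. The rule cut every ratio at 4-fold, and eye was the tissue nearest this cut for 102 of the 128, which limits its SD.

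Large gaps to eye were rare. Among all 6299 genes, 2 exceeded eye by 16-fold and 0 by 64-fold, whereas 134 exceeded olfactory organ by 16-fold, 196 rim cells, 213 mantle skin, 218 whole sucker cup and 280 statocyst. Both of the genes that exceeded eye by 16-fold belonged to the 128. LOC106867091 had 235 CPM in optic lobe and 13.3 CPM (163 reads) in eye, a ratio of 17.7 (15.01 to 20.9). LOC106883547 had 28.1 CPM in optic lobe (151 reads), 1.12 in olfactory organ, 0.857 in statocyst, 0.840 in rim cells, 1.01 and 0.241 in the automated and manual whole sucker libraries, 0.327 CPM (4 reads) in eye and no read in mantle skin. It was the 1 gene of the 128 with under 1 CPM in eye. Of the 6 other tissues only mantle skin was lower, but 3 reads there would be 0.627 CPM. The order of eye and mantle skin is therefore not settled for LOC106883547.

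**Figure D2:**
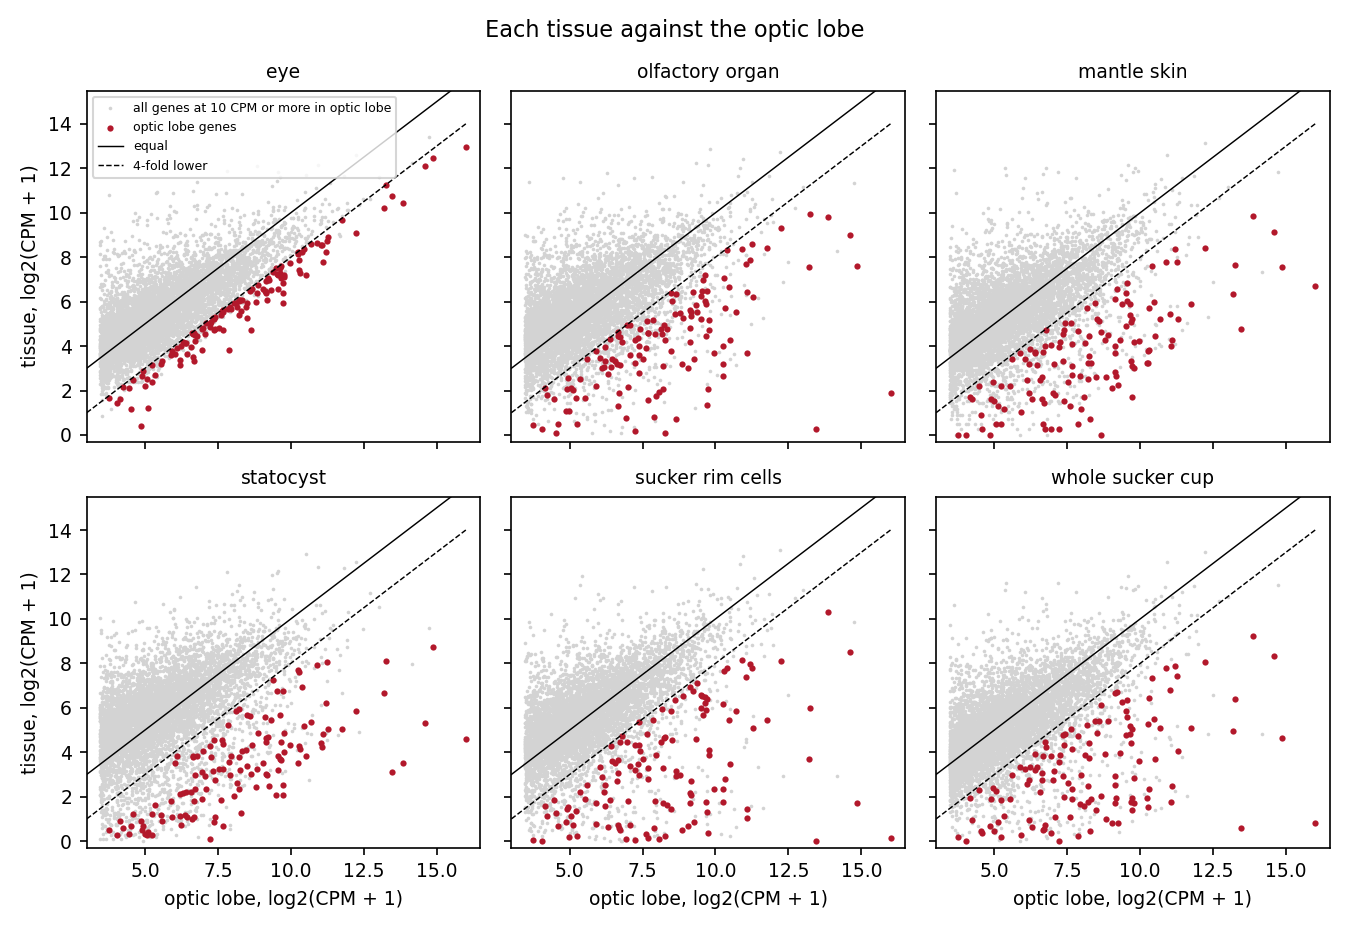
Level in each of 6 tissues (vertical) against optic lobe (horizontal), both as log2(CPM + 1), for the 128 optic lobe genes (red) and all 6299 genes at 10 CPM or more in optic lobe (grey). In the eye panel the red points form a band just under the dashed 4-fold line, with a lowest value of 1.16% of the optic lobe level, while in the other panels they reach down to 0 or nearly 0.

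Below the eye the levels were graded, with the olfactory organ next. Median CPM over the 128 genes was 291 in optic lobe, 51.6 in eye, 16.05 in olfactory organ, 11.2 in mantle skin, 9.92 in statocyst, 6.69 in rim cells and 6.68 in whole sucker cup. The number of genes at 10 CPM or more followed the same order, with 107 in eye, 75 in olfactory organ, 65 in mantle skin, 64 in statocyst, 55 in rim cells and 54 in whole sucker cup. Mantle skin and statocyst, and rim cells and whole sucker cup, were neighbours that differed by 1 gene on this count. Over all 6299 genes these shares were far closer together, from 86.4% in whole sucker cup to 93.4% in eye. Genes under 1 CPM numbered 1 in eye, 11 in olfactory organ, 14 in mantle skin, 19 in statocyst, 26 in rim cells and 23 in whole sucker cup. Over all 6299 genes the shares under 1 CPM were 0.0318% in eye, 0.492% in olfactory organ, 0.714% in mantle skin, 1.78% in statocyst, 1.46% in rim cells and 1.13% in whole sucker cup, so that the most such genes were in statocyst there and in rim cells among the 128.

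The order of the lower tissues depended on the measure, and every measure of it was taken in CPM. Median-of-ratios size factors, another scaling, gave log2 shifts from CPM of -0.39 (statocyst), -0.23 (olfactory organ), -0.11 (rim cells) and -0.01 (mantle skin). The automated and manual whole sucker libraries had shifts of 0.16 and 0.12. Tissue medians were not recomputed with these factors. The order of rim cells (6.69 CPM) and whole sucker cup (6.68 CPM) is therefore not settled. Nor is that of statocyst (9.92 CPM) and whole sucker cup, whose shifts go in opposite directions. By the median log2 ratio of optic lobe to the tissue, statocyst was farthest from optic lobe (4.69), then mantle skin (4.53), whole sucker cup (4.49), rim cells (4.06), olfactory organ (3.58) and eye (2.37). Rim cells thus had nearly the lowest median level and yet a smaller median ratio than statocyst. In rim cells 39 genes were at least 64-fold below optic lobe and the lower quartile of the log2 ratio was 3.23, against 29 genes and 3.82 in statocyst. Over all 6299 genes, 91 were at least 64-fold below optic lobe in rim cells and 49 in statocyst, the same order. The statocyst was the lowest of the 6 tissues for 42 genes (32.8%, against 21.1% of all 6299), whole sucker cup for 33 (25.8%, against 19.8%), rim cells for 30 (23.4%, against 15.49%), mantle skin for 16 (12.5%, against 11.2%), olfactory organ for 7 (5.47%, against 12.1%) and eye for 0 (against 20.2%).

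**Figure D3:**
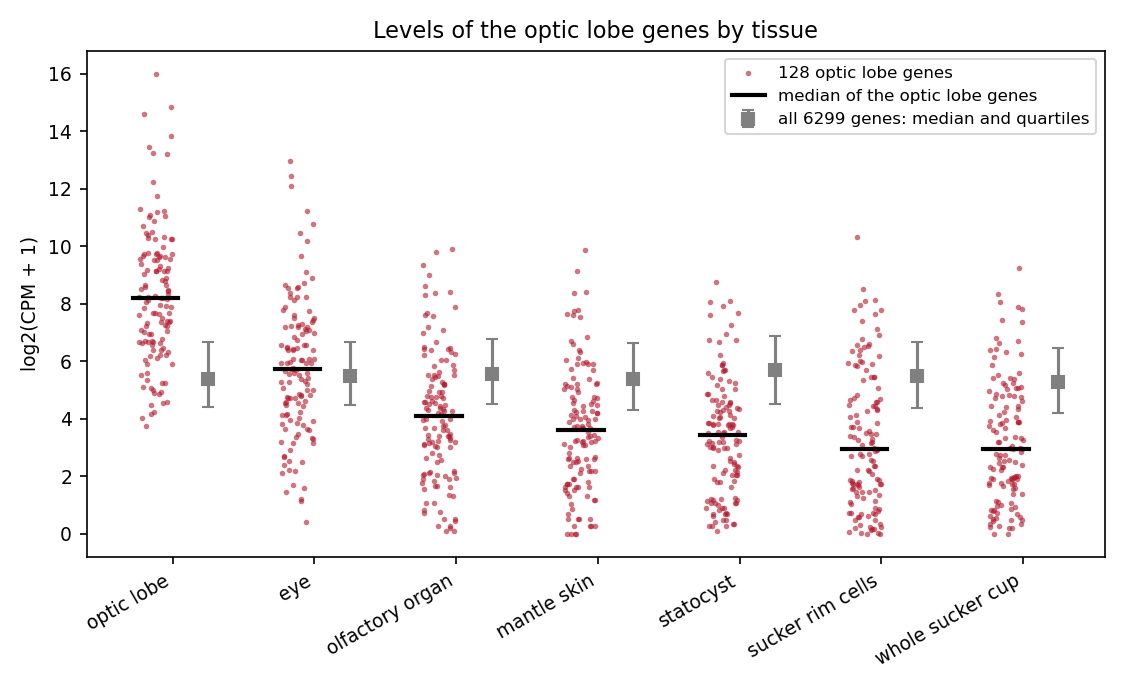
Levels of the 128 optic lobe genes in each tissue as log2(CPM + 1), 1 red point per gene with the median as a black line, beside the median and quartiles of all 6299 genes at 10 CPM or more in optic lobe (grey). The red medians step down from 291 CPM in optic lobe to 6.68 CPM in whole sucker cup, while the grey medians are about level across tissues.

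The sense organs were then compared with each other, leaving the optic lobe value out. The rule held each of the 6 tissues to about 25% of the optic lobe level and did not use which of them was higher below that limit, but the values are the same ones, so these counts too are descriptions. The eye was higher than statocyst for 126 of the 128 genes and at least 4-fold higher for 72 (56.2%), against 8.33% of all 6299 genes. It was at least 4-fold higher than olfactory organ for 36 genes (28.1%, against 6.75% of all), than mantle skin for 64 (50%, against 8.22%), than rim cells for 54 (42.2%, against 6.99%) and than whole sucker cup for 66 (51.6%, against 7.62%). In none of these 5 comparisons was a gene of the 128 at least 4-fold lower in eye. Over all 6299 genes, 4.64% were so against olfactory organ, 3.18% against mantle skin, 1.98% against statocyst, 3.32% against rim cells and 2.11% against whole sucker cup.

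Olfactory organ was also above the lower tissues for more genes than it was below them. It was at least 4-fold higher than statocyst for 25 genes (19.5%, against 9.54% of all 6299) and lower for 8 (6.25%, against 7.1%). Against rim cells it was at least 4-fold higher for 26 genes (20.3%, against 2.86%) and lower for 3 (2.34%, against 1.46%). Against whole sucker cup 27 genes were higher (21.1%, against 2.44%) and 1 was lower (0.781%, against 0.476%). The gap to mantle skin was smaller, with 7 genes higher in olfactory organ (5.47%, against 1.41%), 2 lower (1.56%, against 0.492%) and a median log2 ratio of 0.50. Size factors, with log2 shifts of -0.23 for olfactory organ and -0.01 for mantle skin, would narrow this gap. These counts were not redone with them.

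Statocyst did not stand on one side of the sucker samples, and against mantle skin it was more often 4-fold lower than higher. It was at least 4-fold higher than mantle skin for 8 genes (6.25%, against 8.7% of all 6299) and lower for 19 (14.8%, against 8.46%). Against rim cells 17 genes were higher in statocyst (13.3%, against 7.11%) and 16 lower (12.5%, against 7.87%), and against whole sucker cup 16 were higher (12.5%, against 9.24%) and 18 lower (14.1%, against 7.27%). The nearly equal counts against rim cells and whole sucker cup came from different genes. LOC106875676, for example, was higher in statocyst than in suckers, and LOC106870273 was lower there.

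Sucker and skin samples were closer to each other. Rim cells were at least 4-fold higher than mantle skin for 4 genes (3.12%, against 1.46% of all 6299) and lower for 10 (7.81%, against 1.51%). Mantle skin was at least 4-fold higher than whole sucker cup for 5 genes (3.91%, against 0.318%) and lower for 2 (1.56%, against 0.27%).

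Rim cells and whole sucker cup differed little. A single gene, LOC106871410, was at least 4-fold higher in rim cells (0.333% of all 6299 genes were), with 875 CPM in optic lobe, 138 in eye, 13.9 in rim cells, and 2.54 and 2.05 in the automated and manual whole sucker libraries. In rim cells 3 genes were at least 4-fold lower (2.34%, against 0.714% of all), LOC106874210, LOC106875676 and LOC106883220. LOC106874210 had 404 CPM in optic lobe, 94.7 in eye and 7.96 in rim cells, against 71.1 and 67.8 in the automated and manual whole sucker libraries. The whole sucker libraries are the only repeat in the series, and the labels do not say whether they are separate suckers. Over the 54 genes at 10 CPM or more in whole sucker cup they differed by at most 1.496-fold on CPM + 1.

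**Figure D4:**
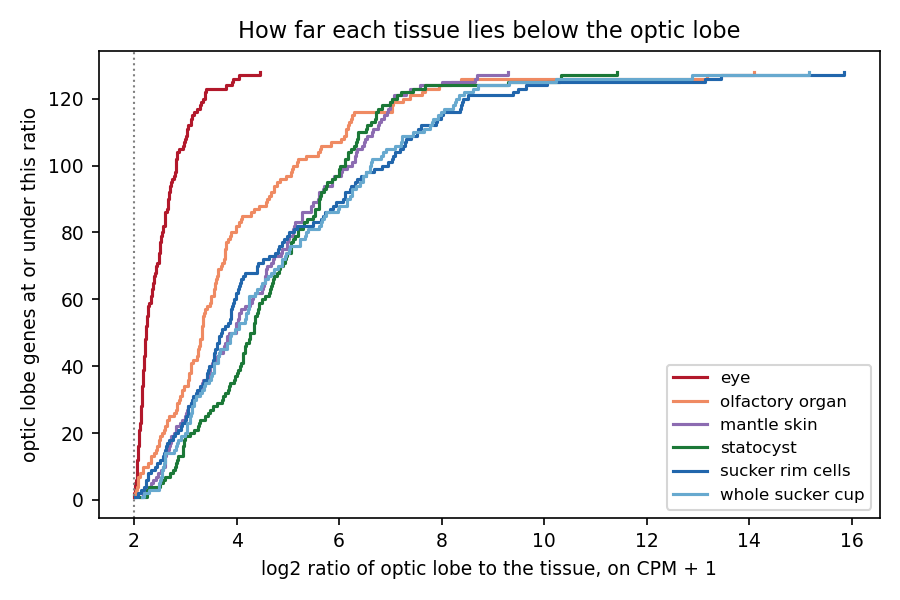
Number of the 128 optic lobe genes (vertical) whose log2 ratio of optic lobe to a tissue, on CPM + 1, is at or under the value on the horizontal axis, 1 line per tissue, with the 4-fold threshold dotted at 2. The eye line ends at 4.46, while the line of rim cells runs to 15.9 and those of the other tissues end between 9.29 and 15.2.

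The eye was the highest tissue after optic lobe for 102 of the 128 genes (79.7%), against 14.2% of the 6171 other genes at 10 CPM or more in optic lobe. Among those other genes the statocyst was most often the highest of the 6, for 38.0%, and it held this place for 1 of the 128. The 38.0% was counted in CPM and not recounted with median-of-ratios size factors, which shifted log2 values of statocyst by -0.39. Behind the eye came olfactory organ with 14 genes (10.9%, against 22.2% of the other genes) and rim cells with 6 (4.69%, against 14.4%). Mantle skin followed with 4 (3.12%, against 9.85%) and whole sucker cup with 1 (0.781%, against 1.31%). Each of these shares was below that of the other genes. Next below the highest of the 6 tissues came olfactory organ for 46 genes, statocyst for 26 and rim cells for 20. Mantle skin held this next place for 17, eye for 15 and whole sucker cup for 4. These counts were not made over the other genes, so they are not read as a trait of the 128.

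A set of 25 genes formed a second step, with eye at least 4-fold above each of the 5 remaining tissues. This was 19.5% of the 128, against 2.02% of all 6299 genes. With median-of-ratios size factors, under which 312 genes passed the optic lobe rule, 60 had this step. With a step of 2-fold the counts were 58 genes (45.3%) against 4.98%. None of the other 5 tissues stood even 2-fold above the rest for any of the 128. Over all 6299 genes, statocyst stood 4-fold above the rest for 1.06% and 2-fold for 7.11%, olfactory organ for 0.27% and 1.97%, rim cells for 0.0476% and 1.08%, mantle skin for 0.0159% and 0.111%, and whole sucker cup for 0.0159% and 0.0476%. Among the optic lobe genes, the eye was the 1 tissue with such steps. The 25 genes took 15.8% of the optic lobe reads and 2.39% of the eye reads, and their level in eye ranged from 7.09% to 23.8% of that in optic lobe. In 6 of them the second step was at least 16-fold. Besides LOC106876298 and LOC106878764 these included LOC106868211, a gene with 149 CPM in optic lobe and 31.2 CPM in eye. It had 2 reads in olfactory organ, 1 each in mantle skin, statocyst and rim cells, and none in either whole sucker library. For LOC106868211, therefore, the reads outside optic lobe and eye were at the limit of detection.

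The genes were grouped by which tissues besides optic lobe reached 10 CPM. All 6 did so for 36 genes (28.1%), against 77.2% of all 6299 genes. No other tissue did for 21 genes (16.4%, against 1.97%; 12 genes with a limit of 5 CPM and 33 with 20 CPM), the eye by itself for 16 (12.5%, against 1.33%), and eye with statocyst for 7 (5.47%, against 1.79%). The other 48 genes had mixed patterns, of which eye with every tissue but statocyst was the most frequent with 9 genes, and eye with olfactory organ followed with 8. In each group except that in which no other tissue reached 10 CPM, every gene had eye at 10 CPM or more.

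Reads per gene in optic lobe differed between these groups. The 21 genes with no other tissue at 10 CPM were low, with a median of 30.7 CPM in optic lobe and at most 102 CPM, and 16 of them were under 43 CPM, the level below which the rule itself keeps every other tissue under 10 CPM. LOC106877664 was the highest of them, with 102 CPM in optic lobe (93.6 to 111), 8.90 in eye, 2.73 in olfactory organ, 1.67 in mantle skin, 1.12 in statocyst, 0.488 in rim cells, and 0.423 and 0.482 in the automated and manual whole sucker libraries. LOC106873026 followed with 72.6 CPM in optic lobe and 9.39 CPM in eye. The eye was just under 10 CPM for both, and was the highest other tissue for 14 of the 21.

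Genes with eye as the only other tissue at 10 CPM had a median of 234 CPM in optic lobe. LOC106869741 had 848 CPM in optic lobe, 60.1 in eye, 7.53 in mantle skin, 3.16 in statocyst, 3.15 in olfactory organ, 2.96 and 2.77 in the automated and manual whole sucker libraries, and 0.271 in rim cells, with a ratio of optic lobe to eye of 14.1 (13.05 to 15.3). LOC106883731 was alike, with 843 CPM in optic lobe, 82.3 in eye and at most 4.75 CPM elsewhere. LOC106870704, with 400.1 CPM in optic lobe and 25.4 CPM in eye, had 7.05 in statocyst, 6.58 in rim cells, 3.80 and 2.29 in the automated and manual whole sucker libraries, 0.631 in olfactory organ and no read in mantle skin.

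The 7 genes of the eye and statocyst pattern were led by LOC106879613. It had 1214 CPM in optic lobe, 298 in eye, 205 in statocyst, 8.57 in mantle skin, 8.27 in olfactory organ, 4.14 in rim cells, and 3.38 and 2.41 in the automated and manual whole sucker libraries. Eye and statocyst were close for this gene and the remaining tissues far below. LOC106872904 had 529 CPM in optic lobe and 94.0 CPM in eye, and its statocyst value of 10.4 CPM barely reached the limit. In LOC106882292, the 1 gene with statocyst as its second tissue, optic lobe had 99.7 CPM, statocyst 13.3 CPM (202 reads) and eye 10.2 CPM (125 reads).

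The 36 genes present everywhere had the largest median in optic lobe, 807 CPM, and a median of 152 CPM in eye, 78.8 in olfactory organ, 77.7 in rim cells, 55.5 in mantle skin, 41.4 in statocyst and 41.3 in whole sucker cup. Their median log2 ratio to the highest other tissue, 2.22, was close to the 2.25 of the genes with eye alone. Besides LOC106869894 and LOC106870273 they included LOC106879964, with 1461 CPM in optic lobe (1429 to 1494), 146 in eye, 21.1 in mantle skin, 18.5 in olfactory organ, 13.1 in statocyst, 10.1 in rim cells, and 10.1 and 13.6 in the automated and manual whole sucker libraries.

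**Figure D5:**
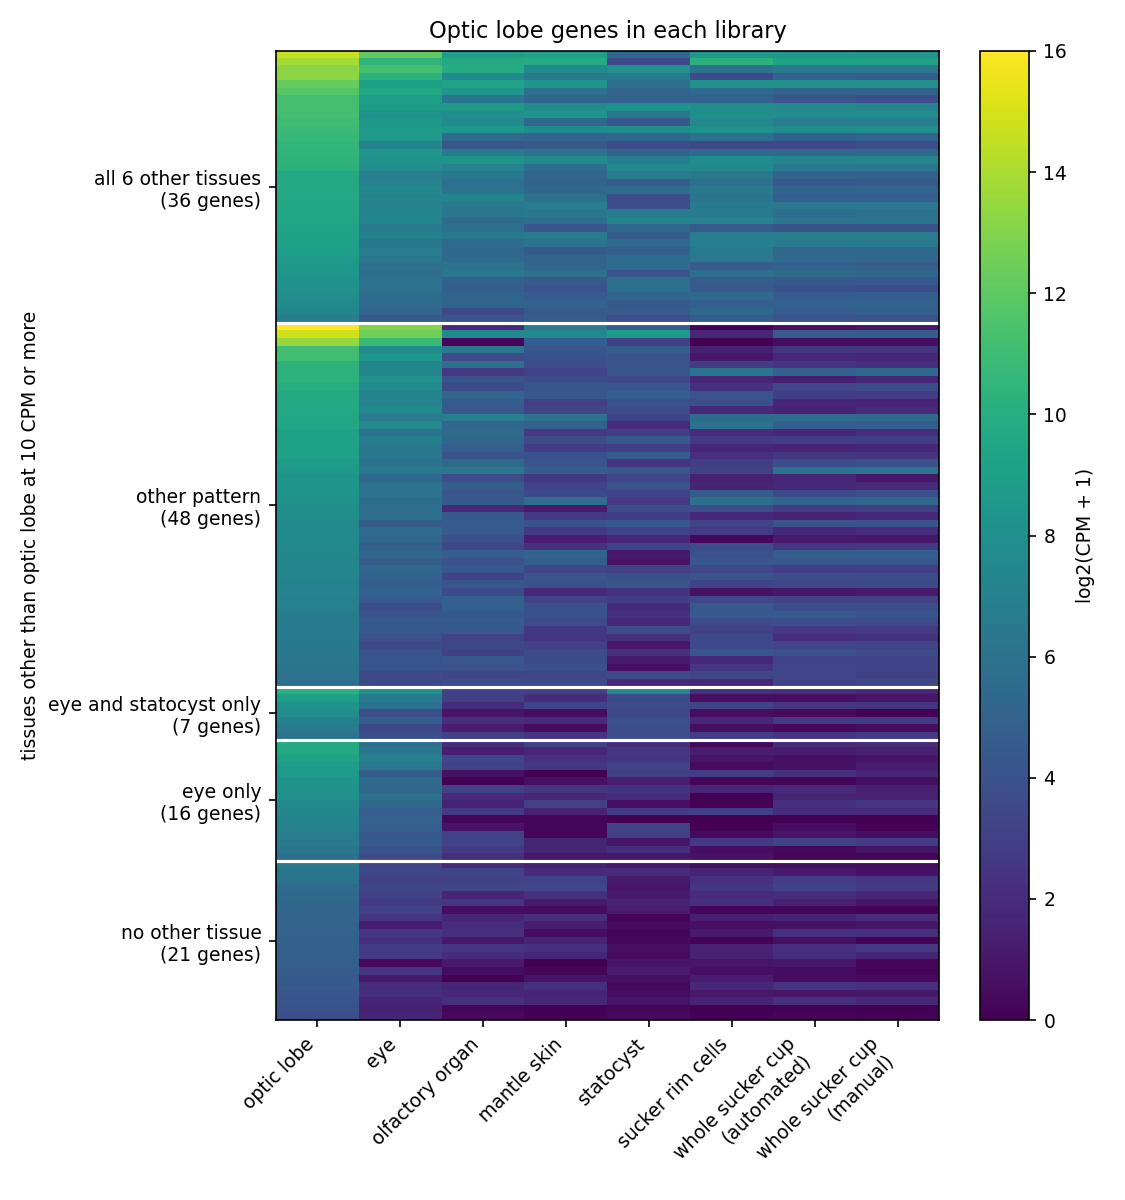
log2(CPM + 1) of the 128 optic lobe genes (rows) in the 8 libraries (columns), grouped by the tissues other than optic lobe that reach 10 CPM and sorted within a group by optic lobe CPM. Optic lobe is the brightest column in every row, eye follows in most, and the statocyst column holds dark cells among genes that are brighter in skin and suckers.

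In 26 genes a tissue other than eye came second, usually by little. The ratio of the highest of the 6 tissues to eye, without a pseudocount, had a median of 1.16 and a maximum of 3.43, in LOC106883547 with its 4 reads in eye. On CPM + 1, 1 gene was at least 2-fold above eye. This was LOC106877037, with 123 CPM in optic lobe, 29.4 in olfactory organ, 20.8 in rim cells, 15.7 in mantle skin, 13.6 and 13.3 in the automated and manual whole sucker libraries, 13.2 in eye and 2.70 in statocyst. LOC106874247 had the most reads of the 26, with 4807.5 CPM in optic lobe, 644 in olfactory organ, 547 in eye, 341 in mantle skin, 274 in rim cells, 271 and 259 in the automated and manual whole sucker libraries and 56.8 in statocyst. Mantle skin came second for LOC106883251, with 2351 CPM in optic lobe, 331 in mantle skin and 302 in eye. Rim cells came second for LOC106869078, with 559 CPM in optic lobe, 121 in rim cells and 87.6 in eye. The 1 gene with whole sucker cup second, LOC106882544, had 21.0 CPM in optic lobe, 3.35 in eye and 4.395 and 3.50 in the automated and manual whole sucker libraries. The ratio of optic lobe to the pooled reads of both was 5.22, and its interval of 3.89 to 7.04 reached below 4.

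Position in the genome was not used by the rule. In the RefSeq order of measured genes on the chromosomes of ASM119413v2, which may not be the build behind the deposited values, 116 of the 128 genes had a place. There were 8 pairs of neighbours in which both genes belonged to the 128, made up of 15 genes. Of 232 places next to one of the 116, 16 (6.90%) held another of the 128, while the 116 were 0.833% of the 13929 placed genes. This share is a description of the gene order and was not tested. Neighbours can be related copies whose reads are split between them, and without sequences this could not be examined here.

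The longest such run was LOC106876288, LOC106876287 and LOC106876290, and LOC106876298 lay 2 places further on. The 9 measured genes centred on LOC106876290 were looked at after their values were seen. Optic lobe was at least 2-fold above every other tissue in 8 of them, and 4 belonged to the 128. LOC106876291, next to the run, had 18369 CPM in optic lobe and 4885 CPM in eye, a ratio just under the threshold (log2 1.91 on CPM + 1). LOC106876292, next to LOC106876298, had 181 CPM in optic lobe and 44.5 CPM in eye (log2 1.997 on CPM + 1). The exception was LOC106876293 at one end, with 39.8 CPM in optic lobe and 182 CPM in olfactory organ. The 8 genes together took 9.53% of the optic lobe reads, 1.44% of the eye reads, 0.0667% in olfactory organ, 0.0415% in statocyst, 0.0369% in mantle skin, 0.00754% in whole sucker cup and 0.00360% in rim cells.

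Of the other pairs, LOC106874247 stood next to LOC106874244, with 4807.5 and 1342 CPM in optic lobe, and olfactory organ came second in both. LOC106869978 stood next to LOC106880811, with 2179 and 30.7 CPM in optic lobe and 222 and 3.59 CPM in eye.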

How the data were processed

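RNA was measured in 8 libraries of 7 tissues, each sequenced on 2 lanes (16 GEO samples). Per the submitters' processing notes, Trim Galore and kallisto were used, with versions, build and annotation not given in the sources used here. Expression values are in 1 table that the authors deposited as log2(CPM + 1) with 1 column per library, as read from the values: inverted columns sum to 1000000, and 100% of values were whole multiples of 1 read within 0.01 reads. Reads per gene were recovered from these multiples. Tissues had 1 library, except whole sucker cup, which entered as the mean CPM of its 2, and differences between tissues are given as descriptions, with no test.

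Computation used Python 3.11.15, numpy 2.4.6, pandas 2.3.3 and scipy 1.17.1. A gene was called with a pseudocount of 1 CPM, a floor of 10 CPM and 4-fold. CPM of single libraries carry exact 95% Poisson intervals, and ratios, which have no pseudocount, exact 95% Clopper-Pearson intervals. The calling rule was tested on simulated data. There all libraries shared a common profile, except for genes raised in optic lobe, and differed by counting error only. Variation between animals and shifts in scaling were therefore not covered. The genes, lists and comparisons were chosen with earlier results of these data known. Genes named are the 8 with the largest ratio, the 8 with the most optic lobe reads, the first 2 of each breadth group, the highest per second tissue, the 3 on each side of the threshold, and the first 3 neighbouring pairs. LOC106868211, LOC106871410, LOC106874210, LOC106877037, LOC106883220, LOC106876288 and the non-members beside it were named after their values were seen. The lists of name and protein patterns were not used here, as no names or sequences were at hand. Alternatives were other pseudocounts, floors, thresholds, scalings, thinning, a counting limit, either whole sucker library left out and, added after seeing the data, each tissue left out of the comparison.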

Additional observations from a re-analysis of the deposited data

How the results depend on the processing

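The 128 genes, the 102 with eye second, the 25 with a second step at the eye, and the median log2 ratios of optic lobe to eye (2.37) and to the highest tissue except eye (3.29) were recomputed. Pseudocounts of 0.1 and 5 CPM, no floor, a floor of 50 CPM, thinning to 4782744 reads and leaving out either whole sucker library kept each count within 1.5 times and each median within 0.19. The number of genes ran from 127 to 128 without a whole sucker library, and eye second stayed at 102, the eye step at 25, the ratio to eye at 2.36 to 2.37 and the other ratio at 3.29 to 3.30. Median-of-ratios size factors gave 312 genes including all 128, 230 with eye second and 60 with the eye step. They shifted log2 values of optic lobe by 0.46 and statocyst by -0.39 relative to CPM. An 8-fold threshold, stricter by construction, gave 15 genes, 12 with eye second, 4 with the eye step and ratios of 3.38 and 4.67. A lower counting limit of at least 4-fold left 95 genes and moved the second ratio to 3.54. With the eye not compared, 290 genes passed, and with any other tissue not compared 129 to 144. Counting a tissue at 5 or 20 CPM gave 12 or 33 genes with no other tissue, instead of 21.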

Other observations

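With the eye set aside, 290 genes were at least 4-fold higher in optic lobe than in each of the 5 remaining tissues, and 162 of them missed the 4-fold ratio to eye. Of these 162, optic lobe was at least 2-fold above eye in 134 and within 2-fold of it in 28, and eye was at least 2-fold above optic lobe in 0. Their median log2 ratio of optic lobe to eye was 1.56, against 0.12 over all 6299 genes. Choosing genes by a high optic lobe level favours this direction. The split by eye was not counted over all 6299 genes, so no conclusion is drawn from it.

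Size factors added 184 genes to the 128. In CPM these had a median log2 ratio of 1.73 to the highest other tissue, and that tissue was eye for 106, olfactory organ for 28, statocyst for 22, rim cells for 15, whole sucker cup for 2 and mantle skin for 11.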
